A study of Homo sapiens with 26 samples.

Results

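Interferon-stimulated genes are the genes whose transcripts rise when a cell answers an interferon, and 51 of them were followed here through every library of the series. The members are a fixed list of symbols, and all 51 were found by Ensembl identifier among the 62703 genes of the Panc10.05 and BxPC3 tables and the 62754 genes of the AsPC-1 table. The list was selected on measured values: it was drawn up after interferon-stimulated genes such as IFI44L, IFITM1 and IFI27 had been seen to differ between the groups of the 2 induced lines. In Panc10.05 and BxPC3 the values below are therefore a description of the genes that prompted the list, with no p-value. The AsPC-1 contrasts were not those in which these genes were first seen, but earlier results of all 3 lines were known when the list was drawn up, so the p-values printed for AsPC-1 describe the members and are not independent support.

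The study altered HNF4A, a nuclear receptor that is transcribed from 2 promoters, P1 and P2, in 3 established cell lines of human pancreatic ductal carcinoma. Panc10.05 libraries came from a negative control carrying GFP (NC, 25 ng/mL doxycycline), the P1 isoform alpha 2 (P1-a2, 25 ng/mL) and the P2 isoform alpha 8 (P2-a8, 12.5 ng/mL), with 2 libraries each. BxPC3 libraries came from an empty-vector control (NC), P1-a2 and P2-a8, all at 500 ng/mL doxycycline and with 2 libraries each. In AsPC-1 the endogenous gene was repressed by CRISPR interference, in which guide RNAs bring a silencing protein to a promoter. The 2 guides to P1 (sgP1E and sgP1J), the 2 to P2 (sgP2D and sgP2G) and the 2 to both (sgDual2 and sgDual3) had 2 libraries each, so 4 per target, beside 2 libraries of a control guide (sgNC). All cells grew in RPMI-1640 with serum and Plasmocin, an antibiotic against mycoplasma, and no interferon treatment is named in the labels. Whether the engineered cells were clones or mixed populations is not stated in the sources used here. Nor do the labels say whether libraries of a group were separate cultures, so the spread between them may be technical.

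Type I and type III interferons bind surface receptors that activate the kinases JAK1 and TYK2, which phosphorylate STAT proteins. STAT2 and IRF9 are parts of a complex called ISGF3, which binds the interferon-stimulated response element (ISRE) in promoters. Interferon gamma instead acts at gamma-activated sites (GAS), as in the promoter of IRF1. The induced proteins detect viral RNA, degrade it, block translation or entry, and tag proteins with the ubiquitin-like protein ISG15. Some carcinoma lines hold such genes at a raised level without added interferon.

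RefSeq promoters on GRCh38.p14, 250 bases before to 50 bases after each start site, were found for 41 of the 51 members. The core ISRE was searched as GAAANNGAAA on both strands, and 28 of the 41 promoters (68.3%) held it, against 3.65% of all 27305 promoters in the table. The longer form GAAANNGAAACT, whose matches also count as core matches, was in 18 member promoters (43.9%) and in 0.271% of all. GAS, searched as TTCNNNGAA, was in 10 (24.4%) and in 7.88% of all. The HNF4 motif CAAAGTCCA was in 0 of the 41 and in 0.359% of all, which says only that these letters are not in these windows. The members shown here are followed through every group below, and each line gives the 150 bases that end at the base before the start site, on the gene's own strand. Capitals mark the core ISRE in IFI44L, IFI6, IFI27, IFIT1 and ISG15, and GAS in the transcription factor genes IRF1 and IRF9, which had no core ISRE in the window.
IFI44L: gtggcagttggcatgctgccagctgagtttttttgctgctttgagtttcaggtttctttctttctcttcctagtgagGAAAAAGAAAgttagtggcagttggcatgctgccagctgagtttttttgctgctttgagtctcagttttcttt
IFI6: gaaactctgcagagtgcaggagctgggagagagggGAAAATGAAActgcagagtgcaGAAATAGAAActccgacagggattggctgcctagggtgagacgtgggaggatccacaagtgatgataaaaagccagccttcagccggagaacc
IFI27: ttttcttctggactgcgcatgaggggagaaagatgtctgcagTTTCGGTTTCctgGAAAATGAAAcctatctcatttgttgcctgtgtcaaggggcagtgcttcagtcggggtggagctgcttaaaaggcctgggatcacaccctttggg
IFIT1: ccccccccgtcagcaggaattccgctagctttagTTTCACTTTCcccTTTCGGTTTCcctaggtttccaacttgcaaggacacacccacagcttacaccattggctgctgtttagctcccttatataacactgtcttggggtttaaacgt
ISG15: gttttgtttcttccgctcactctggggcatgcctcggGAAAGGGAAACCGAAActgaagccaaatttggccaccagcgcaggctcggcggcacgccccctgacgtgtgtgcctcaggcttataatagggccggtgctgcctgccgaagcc
IRF1: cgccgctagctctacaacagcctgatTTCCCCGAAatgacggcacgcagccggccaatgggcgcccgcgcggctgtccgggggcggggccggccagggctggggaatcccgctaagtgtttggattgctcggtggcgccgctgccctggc
IRF9: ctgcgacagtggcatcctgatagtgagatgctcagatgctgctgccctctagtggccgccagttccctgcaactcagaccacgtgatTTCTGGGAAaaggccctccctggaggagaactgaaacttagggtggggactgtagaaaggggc
These windows are chr1:78620298-78620447 (plus strand) for IFI44L, chr1:27672193-27672342 (minus) for IFI6, chr14:94110586-94110735 (plus) for IFI27, chr10:89392473-89392622 (plus) for IFIT1 and chr1:1013347-1013496 (plus) for ISG15. The IRF1 window is chr5:132490774-132490923 (minus) and the IRF9 window is chr14:24161115-24161264 (plus). IFI6, IFI27, IFIT1 and ISG15 each show 2 core ISRE matches, which overlap in ISG15. IFI44L shows 1, whose first base lies 73 bases before the start site.

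**Figure D1:**
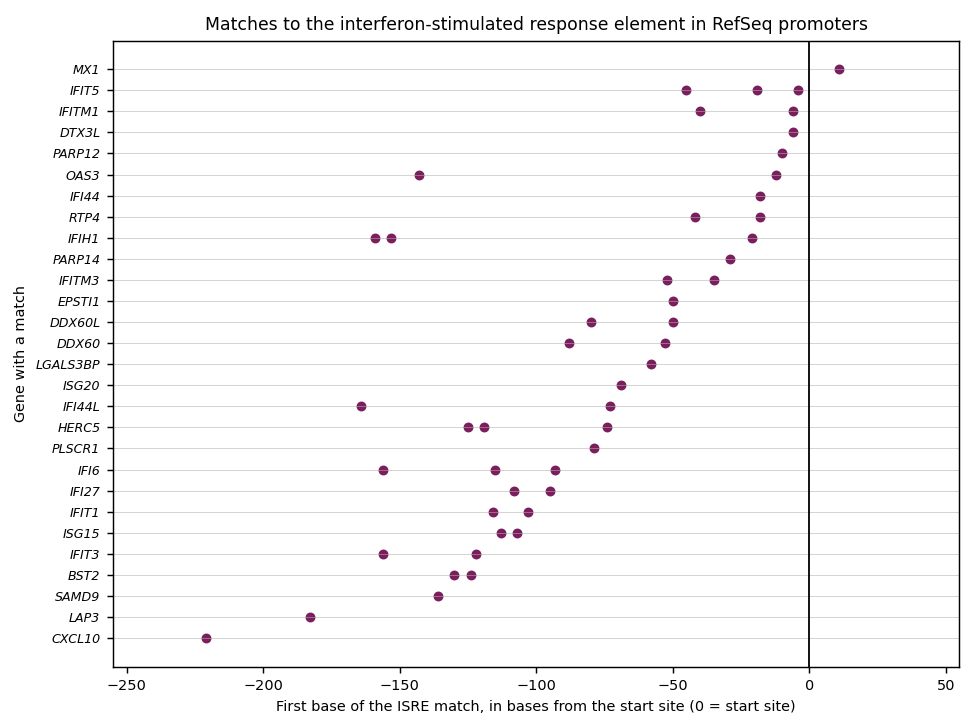
Position of each core ISRE match (horizontal axis, bases from the RefSeq start site, 0 being the start) in the 28 member promoters that hold one (vertical axis). In 20 of the 28 the match nearest the start lies within 100 bases before it, the median of these nearest distances being -55.5 bases, and 16 promoters hold 2 or more.

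Many members are neighbours in the genome. Within gaps of 100 kb, 24 of the 51 fell into 10 clusters on GRCh38 in the GENCODE v29 annotation, such as IFIT2, IFIT3, IFIT1 and IFIT5 on chromosome 10 (89283694 to 89421001), IFITM2, IFITM1 and IFITM3 on chromosome 11 (307631 to 327537) and OAS1, OAS3 and OAS2 on chromosome 12 (112906777 to 113011723). IFITM1 and IFITM2 share exonic bases on the same strand, and the IFIT, IFITM and OAS copies resemble each other, so reads may be split among them. RSAD2 and CMPK2, and PARP9 and DTX3L, overlap on opposite strands, and the strand setting of the counting is not given in the sources used here.

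Library totals ran from 26079388 to 50662077 counts. HNF4A itself lay at 0.240 and 0.058 CPM (counts scaled to equal library size) in the Panc10.05 control libraries, at 10.7 and 13 with P1-a2 and at 37.6 in both P2-a8 libraries. In BxPC3 it lay at 1.08 and 0.464 CPM in the control, at 9.76 and 11.6 with P1-a2 and at 12.6 and 14.2 with P2-a8. In AsPC-1 it lay at 206 and 220 CPM with sgNC, between 109 and 146 over the sgP1 libraries, between 76.7 and 93.9 over sgP2 and between 3.19 and 13.6 over sgDual. The targeted gene therefore moved as labelled in each line, and in Panc10.05 the 2 isoforms differed in both dose and level. Over 5 epithelial markers (EPCAM, KRT8, KRT18, KRT19 and CDH1) the summed level was at least 4672 CPM in every library. The islet markers INS and GCG summed to at most 0.0292 CPM in any library. Summed levels were at most 1.08 CPM for the acinar markers PRSS1 and CPA1, 4.59 for the endothelial markers PECAM1 and VWF, and 12.1 for the fibroblast markers COL1A1, COL1A2 and PDGFRB. The immune markers PTPRC, CD3E, CD68 and LYZ summed to at most 9.48 CPM in Panc10.05 and 4.22 in BxPC3.

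The 3 lines stood at different levels in their controls. In the control libraries the median member stood at 99.1 CPM in Panc10.05, 70.0 in BxPC3 and 14 in AsPC-1, and 36 members were highest in Panc10.05, 12 in BxPC3 and 3 (IFITM2, IRF7 and OAS1) in AsPC-1. Line, control construct, listed doxycycline dose and counts table change together here and cannot be told apart. Per kilobase of exon, ISG15 led in Panc10.05 at 574 ± 59 (SD, n = 2) in CPM per kilobase (RPKM), and IFITM3, which blocks viral entry, led in BxPC3 at 260 ± 1.8. LGALS3BP, a secreted glycoprotein, led in AsPC-1 at 89.1 ± 0.92. Some members were all but missing from a line: IRF7 had 0 counts in every BxPC3 library and at most 0.087 CPM in Panc10.05, yet 12.9 and 13.4 CPM in the AsPC-1 controls. IFI44L ran the other way, at 35.4 and 41.1 CPM in Panc10.05 and 51.6 and 78.8 in BxPC3 but 0 and 0.0642 in AsPC-1. CXCL10, a chemokine that draws T cells, was above 5 CPM only in BxPC3 libraries, at 13.8 and 20.8 CPM in its control.

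**Figure D2:**
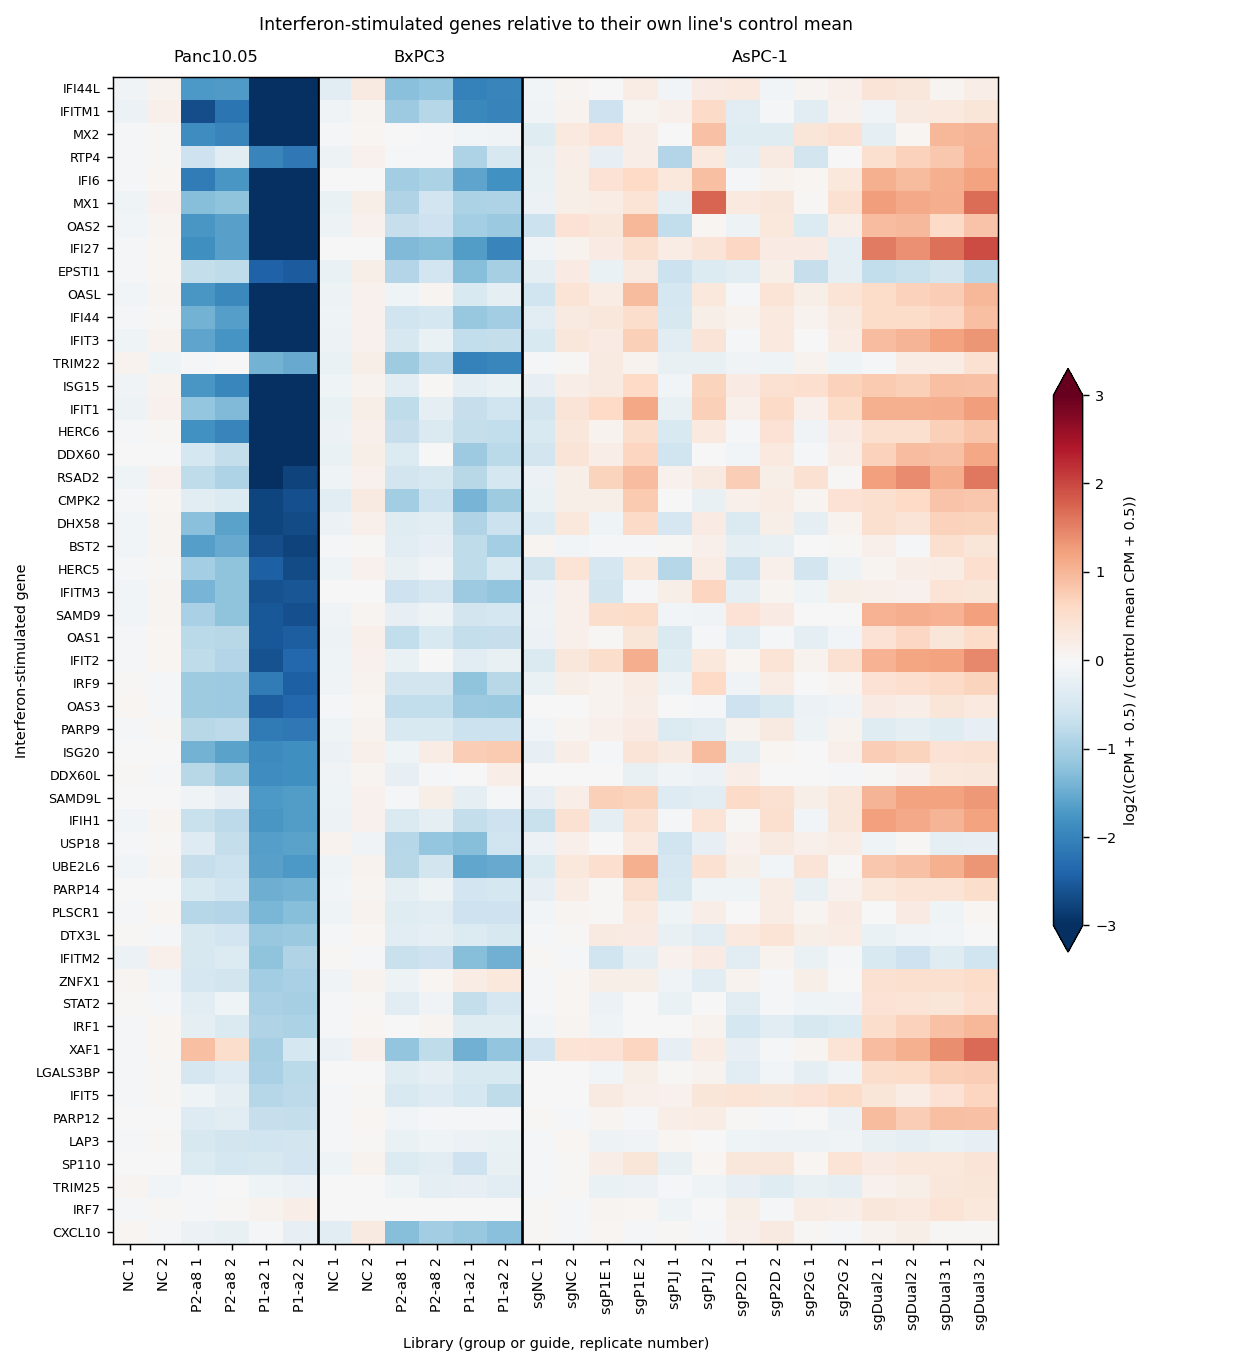
Log2 ratio of each library to its own line's control mean, with 0.5 CPM added (colour, red higher and blue lower), for the 51 members (rows) in all 26 libraries (columns, by line and group). The Panc10.05 P1-a2 columns are the deepest blue, all 49 members tested there being lower than in the control, and the sgDual columns of AsPC-1 are mostly red, with 26 members past the threshold upward.

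In Panc10.05 the whole set fell when P1-a2 was induced. All 49 members tested were past the threshold (adjusted p under 0.05 over all genes tested) and lower than in the control, where 30.5% of all genes tested were lower and 31.5% higher. CXCL10 and IRF7 were too low to test. The median member changed by a log2 fold change of -2.54, against 0.02 over all genes, and 40 of the 49 fell at least 2-fold, as 9.15% of all genes did. In bulk RNA, fewer cells of a kind and less RNA per cell cannot be told apart. As the rule that drew up the list used this contrast, the count describes these genes and supports nothing beyond them.

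The effectors, which act on viral RNA or block entry and budding, held the deepest falls: all 27 were lower, with a median log2 fold change of -3.12. IFI44L, an interferon-induced cytoplasmic protein, stood at 35.4 and 41.1 CPM in the control, 11.3 and 11.5 with P2-a8 and 0.359 and 0.435 with P1-a2. The 3 groups did not overlap, and the P1-a2 level was 1.04% of the control level, a log2 fold change of -6.57 ± 0.16 (SE, n = 2 against 2). IFITM1, a membrane protein that restricts viral entry, stood at 50.8 and 63.7 CPM in the control, 8.63 and 12.1 with P2-a8 and 0.591 and 0.739 with P1-a2, a log2 fold change of -6.41 ± 0.21 for P1-a2. It had 1 of the 2 deepest falls in each induced group of Panc10.05.

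IFI6, a mitochondrial and endoplasmic reticulum protein, ran from 166 and 179 CPM in the control to 40.1 and 51.3 with P2-a8 and 4.60 and 5.33 with P1-a2 (-5.11 ± 0.11 for P1-a2). IFI27, a mitochondrial protein of the same family, ran from 249 and 270 CPM to 72.6 and 83.2 and then 10.2 and 15.1 (-4.35 ± 0.20). Both genes showed control above P2-a8 above P1-a2 with no overlap. MX1, a GTPase that traps viral nucleocapsids, stood at 82.4 and 98.0 CPM in the control, 36.8 and 38.8 with P2-a8 and 2.75 and 4.33 with P1-a2 (-4.65 ± 0.14). Its neighbour MX2 ran from 24.0 and 25.1 CPM to 6.35 and 5.86 and 0.359 and 0.478 (-5.85 ± 0.17). IFIT1, which binds foreign 5′ RNA ends, ran from 312 and 376 CPM to 153 and 137 and 29.3 and 31.8 (-3.49 ± 0.08), a smaller fall from a higher level. OAS1, which makes the activator of RNase L, stood at 106 and 117, 63.2 and 62.0, and 18.6 and 19.5 CPM (-2.54 ± 0.07). BST2, or tetherin, which holds budding virus at the membrane, stood at 220 and 249, 74.8 and 81.4, and 36.5 and 33.7 CPM (-2.74 ± 0.07).

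The other roles followed with smaller median changes. All 5 genes of the ISG15 system were lower with P1-a2, with a median of -2.60: ISG15 itself went from 501 and 579 CPM in the control to 162 and 139 with P2-a8 and 44.6 and 49.1 with P1-a2 (-3.53 ± 0.08). USP18, which removes ISG15 and dampens receptor signalling, went from 17.6 and 18.6 CPM to 13.7 and 10.9 and 5.42 and 5.59 (-1.71 ± 0.11). The transcription factors changed less, with a median of -0.96 over the 4 tested. IRF9, the DNA-binding part of ISGF3, went from 16.4 and 15.6 CPM to 7.41 and 7.27 and 3.36 and 2.54 (-2.45 ± 0.13). Its partner STAT2 went from 100 and 95.8 CPM to 77.3 and 89.4 and 49.9 and 49.3 (-0.98 ± 0.07). IRF1 went from 40.0 and 43.0 CPM to 34.1 and 30.8 and 22 and 21.2 (-0.94 ± 0.08). All 4 RNA sensors and helpers (median -1.36) were also lower, as were PARP9, PARP12, PARP14 and DTX3L, which were grouped together (median -1.30). RTP4, a chaperone for surface receptors, had at most 3 counts in each P1-a2 library, and against that floor it was at least 25.2-fold lower than in the control.

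P2-a8 gave a shallower change in the same line, at 12.5 rather than 25 ng/mL doxycycline. Past the threshold, 44 of the 49 members were lower and 1 was higher, beside 22.5% lower and 23.7% higher over all genes. The median log2 fold change was -0.85, against 0.00 over all genes, and 21 members fell at least 2-fold, beside 2.82% of all genes. The deepest falls were those of IFITM1 (-2.48 ± 0.14), MX2 (-2.0 ± 0.11) and IFI6 (-1.92 ± 0.09). The member that rose was XAF1, a pro-apoptotic zinc finger protein, from 2.28 and 2.49 CPM to 4.89 and 3.66 (0.86 ± 0.19), although it was 0.950 and 1.5 CPM with P1-a2. SAMD9L, TRIM22, TRIM25 and RTP4 were not past the threshold, and their log2 fold changes lay between -0.63 and -0.01. Set directly against P2-a8, P1-a2 left 47 of the 49 members lower and 0 higher, where 24.7% of all genes were lower and 22.2% higher. SP110 and LAP3 were not past the threshold. The 3 deepest differences were those of IFI44L (-4.82 ± 0.18), IFITM1 (-3.93 ± 0.25) and MX1 (-3.40 ± 0.14). P1-a2 thus had the lower member levels and, at 11.8 against 37.6 CPM, the lower HNF4A level, at the higher dose.

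**Figure D3:**
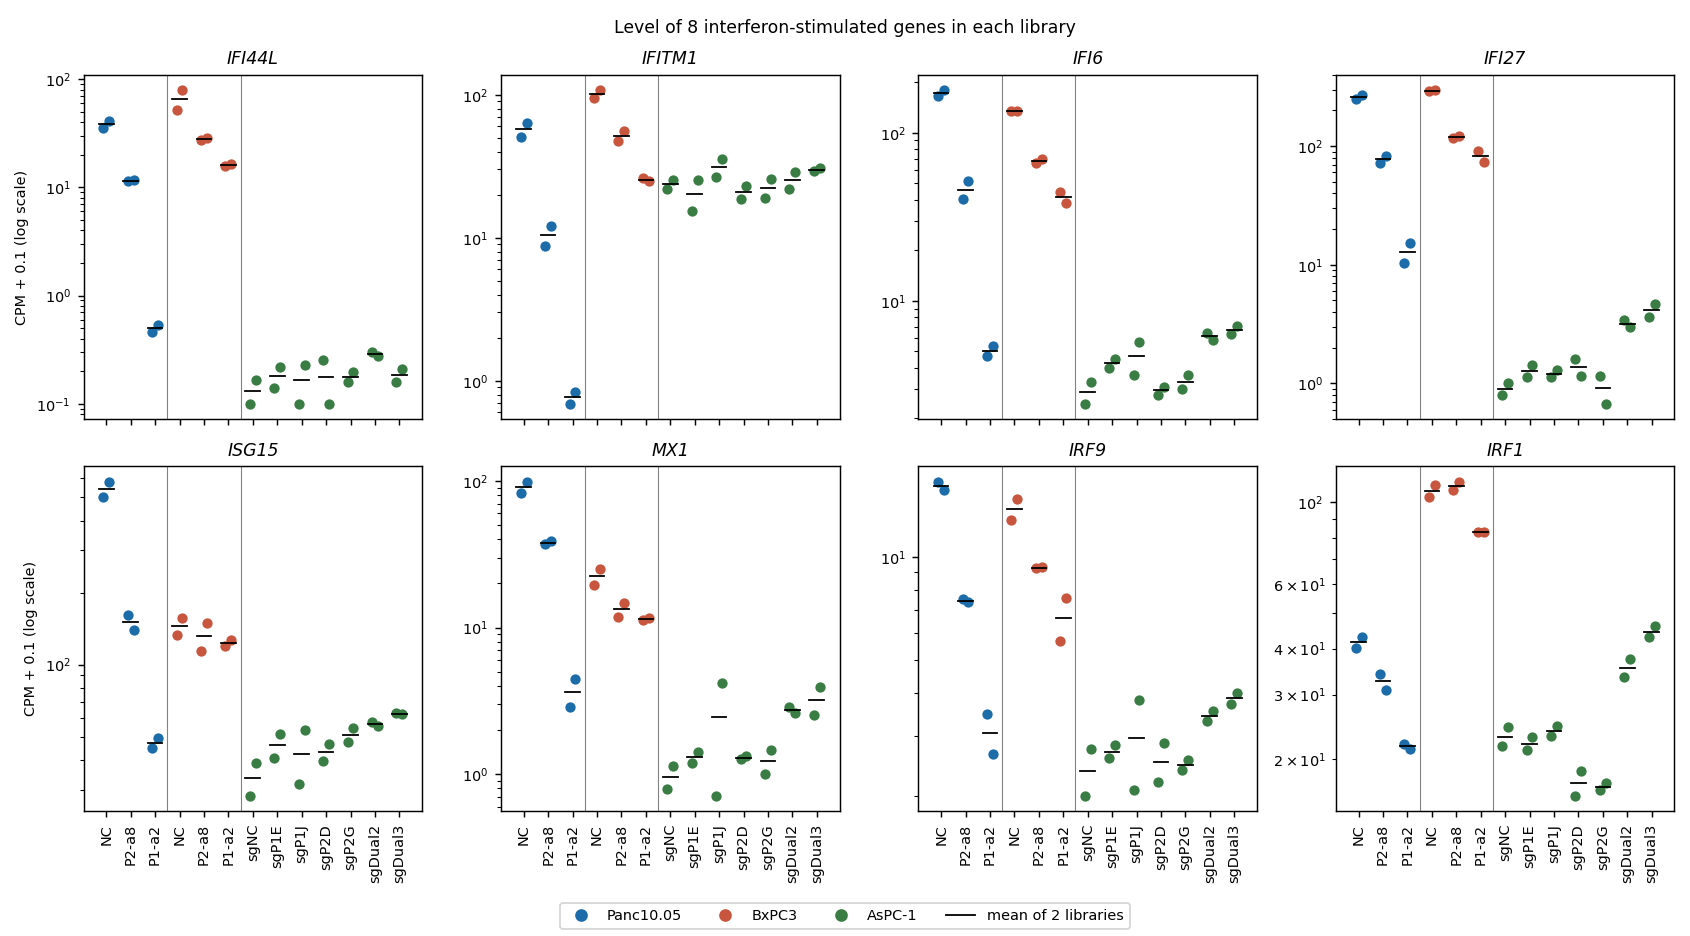
Level of 8 members in each library (vertical axis, CPM + 0.1 on a log scale) by group or guide (horizontal axis); points are libraries, black bars the means of 2, and colours the lines. In Panc10.05 and BxPC3 IFI44L, IFITM1, IFI6 and IFI27 step down from the control to P2-a8 to P1-a2 with no overlap, and in AsPC-1 IFI27 and IRF1 are highest in the 4 sgDual libraries.

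In BxPC3, at equal doses, the members fell less. With P1-a2, 42 of the 50 members tested were lower and 2 higher, beside 14.9% lower and 17.1% higher over all genes. The median log2 fold change was -0.72, against -0.01 over all genes, and 16 fell at least 2-fold, beside 2.32% of all genes. IRF7, at 0 counts, could not be tested. TRIM22, a restriction factor, had the deepest fall, from 19.0 and 25.0 CPM in the control to 10.2 and 12.5 with P2-a8 and 5.02 and 5.30 with P1-a2 (-2.10 ± 0.15).

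IFI44L stood at 51.6 and 78.8 CPM in the BxPC3 control, 27.1 and 28.7 with P2-a8 and 15.6 and 16.2 with P1-a2 (-2.04 ± 0.20). IFITM1 stood at 94.1 and 107, 47.4 and 55.4, and 26.1 and 24.8 CPM (-1.99 ± 0.09). IFI27 ran from 290 and 296 CPM to 117 and 121 and 90.8 and 73.7 (-1.84 ± 0.09), and IFI6 from 135 in both controls to 65.7 and 69.5 and 44.5 and 37.9 (-1.72 ± 0.08). In these 4 genes the groups were again ordered control, P2-a8, P1-a2 with no overlap. IRF9 stood at 12.7 and 14.6, 9.18 and 9.22, and 5.58 and 7.49 CPM (-1.06 ± 0.15), and STAT2 at 114 and 119, 93.2 and 109, and 70.6 and 82.8 CPM (-0.61 ± 0.09). CXCL10 fell with both isoforms, from 13.8 and 20.8 CPM to 6.86 and 8.11 with P2-a8 (-1.22 ± 0.18) and 7.53 and 6.92 with P1-a2 (-1.27 ± 0.18).

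Of the 50 members tested, 6 were not past the threshold in BxPC3 with P1-a2. ISG15 stood at 133 and 156 CPM in the control and 120 and 127 with P1-a2 (-0.23 ± 0.14), and MX2 at 96.3 and 104 against 93.9 and 93.2 (-0.10 ± 0.06), neither past the threshold. IFIT2, SAMD9L, PARP12 and DDX60L were the other 4 that were not. ISG20, an exonuclease that degrades viral RNA, rose from 14.1 and 17.9 to 26.9 and 27.9 CPM (0.77 ± 0.14), and ZNFX1, a helicase that senses viral RNA, rose from 169 and 195 to 212 and 228 (0.27 ± 0.09). ZNFX1 was not past the threshold without the first control or the second P1-a2 library. In Panc10.05 the same genes were lower with P1-a2, by -1.90 ± 0.08 and -1.01 ± 0.06.

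With P2-a8 in BxPC3, 24 of the 50 members were lower and 0 higher, beside 2.69% lower and 4.3% higher over all genes, with a median of -0.38 against 0.01. This count fell to 14 without the second control library. That library stood above the first for 47 of the 50 members, with a median log2 ratio of 0.24 against 0.01 over all genes, and the second P2-a8 library stood above its first for 45, with a median of 0.10. The part of these shifts in the falls was not tested. IFI27 (-1.30 ± 0.08), IFI44L (-1.23 ± 0.19) and CXCL10 had the deepest falls, and of the 4 sensors 0 passed the threshold. IFI44L was not past it without either P2-a8 library. At equal dose, and with HNF4A at 10.7 CPM for P1-a2 and 13.4 for P2-a8, P1-a2 lay below P2-a8 for 22 members and above it for 3, beside 10.8% lower and 11.6% higher over all genes, with 25 not past the threshold. Without the second P2-a8 library, 16 of the 50 were past it. TRIM22 (-1.14 ± 0.16), IFITM1 (-1.02 ± 0.09) and UBE2L6, the conjugating enzyme of ISG15 (-0.86 ± 0.11), differed most. ISG20 (0.72 ± 0.14), ZNFX1 (0.31 ± 0.09) and DDX60L (0.28 ± 0.09) were the 3 that were higher. ZNFX1 and DDX60L were not past the threshold without P1-a2 library 2 or P2-a8 library 1. IFIT1, ISG15, MX1, OAS1, USP18 and CXCL10 did not pass the threshold between the isoforms, their log2 differences lying between -0.21 and 0.14.

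The 2 induced lines share no libraries. With P1-a2, 41 members were past the threshold and lower in both, as were 8.85% of the 15476 genes tested in both. Fewer members were in this set without the second BxPC3 control library or without either BxPC3 P1-a2 library. IFIT1 was lost from it in each of those fits. TRIM25 alone was lost from it without the first Panc10.05 control library or without either Panc10.05 P1-a2 library. With each isoform in each line 21 members were lower, beside 0.762% of those genes. Leaving out 1 library of either line gave 12 to 22, the lowest without the second BxPC3 control library. IFI27, IFI6 and IFITM1 were among them in every such fit, whereas MX1, OAS1, IRF9 and USP18 were not among the 12 and IFI44L was not among them without either P2-a8 library of BxPC3. P1-a2 lay below P2-a8 in both lines for 22 members, beside 6.31% of genes, and for 14 without the first BxPC3 P1-a2 library and 13 without the second BxPC3 P2-a8 library. The members were chosen on these contrasts, so nothing is read from the shares. Differences in response between the lines were not tested.

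**Figure D4:**
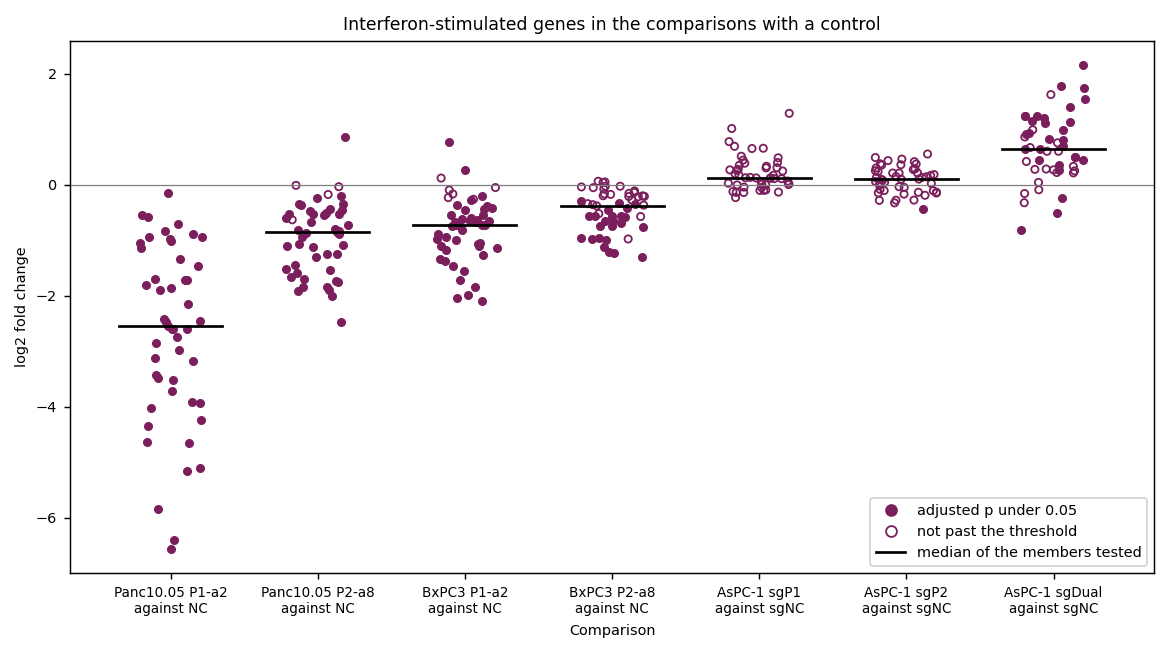
Log2 fold change of each tested member (points, filled where the adjusted p is under 0.05) in the 7 comparisons with a control (horizontal axis), with the median as a black bar. The medians run from -2.54 in Panc10.05 with P1-a2 to 0.64 in AsPC-1 with both promoters repressed, and the comparisons within a line share their control libraries.

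In AsPC-1 the members moved the other way when both promoters were repressed. Against sgNC, 26 of the 48 members tested rose and 3 fell with sgDual, where 17.8% of all genes rose and 17.8% fell. The median log2 fold change was 0.64, against 0.00 over all genes, and 12 rose at least 2-fold, beside 6.34% of all genes. CXCL10, IFI44L and TRIM22 were too low to test. IFI27 stood at 0.697 and 0.899 CPM with sgNC and at 3.30, 2.86, 3.55 and 4.55 with sgDual, the latter all above the former (2.16 ± 0.31, edgeR quasi-likelihood adjusted p = 0.000102). IFI6 stood at 2.34 and 3.18 CPM against 6.31, 5.78, 6.30 and 7 (1.20 ± 0.20, edgeR adjusted p = 0.000297). IRF1 stood at 21.6 and 24.3 CPM against 33.3, 37.5, 42.8 and 45.9 (0.80 ± 0.12, edgeR adjusted p = 0.000139). None of these 3 genes overlapped between the groups. IFI27 and IRF1 stayed past the threshold in every alternative run, except that a limit of 2-fold removes IRF1. IFI6 missed it only among the libraries numbered 2 (edgeR adjusted p = 0.0506).

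Among genes of at least 5 CPM the largest rises were those of SAMD9L, an antiviral translation inhibitor (7.16 and 9.89 CPM against 17.8, 20.3, 20.4 and 21.8, log2 fold change 1.24 ± 0.31, edgeR adjusted p = 0.00741), and IFIT2 (33.5 and 57.3 against 94.2, 104, 105 and 124, 1.24 ± 0.34, edgeR adjusted p = 0.0133). IFIH1, the RNA sensor MDA5, stood at 3.20 and 7.51 CPM against 13.3, 12.4, 11.4 and 13.1 (1.23 ± 0.30, edgeR adjusted p = 0.00650). The first sgNC library was the lower of the 2 in each of these 3 genes. ISG15 stood at 28.2 and 38.6 CPM against 57.5, 55.1, 62.5 and 62.1 (0.83 ± 0.19, edgeR adjusted p = 0.00439), and IFIT1 at 16.6 and 32.2 against 51.6, 51.4, 52.7 and 58.5 (1.14 ± 0.34, edgeR adjusted p = 0.0212). MX1, at 0.697 and 1.03 CPM against 2.76, 2.51, 2.42 and 3.84, also rose (1.74 ± 0.59, edgeR adjusted p = 0.0342). OAS1 stood at 218 and 272 CPM against 333, 378, 316 and 360, a rise of 0.50 ± 0.17 (edgeR adjusted p = 0.0359).

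Of the 5 transcription factors 4 rose. Besides IRF1, these were STAT2, from 23.3 and 25.2 CPM to 32.9, 32.3, 31.4 and 34.8 (0.44 ± 0.09, edgeR adjusted p = 0.00153), IRF7, from 13.4 and 12.9 to 16.9, 16.3, 17.7 and 16.5 (0.36 ± 0.10, edgeR adjusted p = 0.00922), and IRF9, from 1.90 and 2.63 to 3.21, 3.44, 3.61 and 3.89 (0.64 ± 0.22, edgeR adjusted p = 0.0340). The smallest adjusted p of any member was that of PARP12, a zinc finger PARP (0.91 ± 0.11, edgeR adjusted p = 3.05e-05), named here after its value was seen. The 3 members that fell were EPSTI1 (-0.82 ± 0.29, edgeR adjusted p = 0.0361), IFITM2 (-0.51 ± 0.19, edgeR adjusted p = 0.0476) and LAP3, an aminopeptidase (-0.24 ± 0.07, edgeR adjusted p = 0.0127), and all 3 were also lower with P1-a2 in Panc10.05 and BxPC3. IFITM1, at 21.9 and 25.4 CPM against 21.8, 28.6, 29.2 and 30.4, overlapped between the groups (0.22 ± 0.25, edgeR adjusted p = 0.55). USP18 at 4.85 and 6.20 CPM against 5.02, 5.63, 4.54 and 4.57 (-0.16 ± 0.20), and BST2 at 35.0 and 31.2 against 36.6, 31.8, 46.1 and 42.7 (0.25 ± 0.13), also overlapped.

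The sgDual count rests in part on the control libraries. In 6 of the 7 guides, sgNC included, the library numbered 2 stood above the library numbered 1 for 35 to 42 of the 48 members, and in sgDual2 for 30. Over all genes tested the share higher in library 2 was 48.6% to 51.3% in the 7 guides. In sgNC the median log2 ratio of library 2 to library 1 was 0.44 over the members, against 0.01 over all genes. Without the first sgNC library 10 of the 48 members were past the threshold against sgNC, 8 of them upward. IFIH1, IFIT1, IFIT2, IFITM2, IRF7, IRF9, ISG15, MX1, OAS1 and SAMD9L were not among them (edgeR adjusted p between 0.0604 and 0.331). Without the second sgNC library IFITM2, IRF7, LAP3 and MX1 did not pass (edgeR adjusted p between 0.0724 and 0.149). IFITM2 also did not pass without any 1 of the 4 sgDual libraries, IRF9 without 3 of them (both of sgDual3 and the second of sgDual2), OAS1 without the second of either guide, and MX1 without sgDual2 library 1 or sgDual3 library 2 (edgeR adjusted p between 0.0503 and 0.0969 over these fits). The comparison was repeated among libraries of 1 number, an alternative added after the data were seen. The median log2 ratio of sgDual to sgNC was 0.82 with 42 of 48 members positive among libraries numbered 1. Among those numbered 2 it was 0.43 with 41 positive. Shares over all genes are not given for the fits with fewer libraries, so their counts are not set against all genes. What the numbers stand for is not given in the labels. The immune markers summed to 15.3 to 81.4 CPM over AsPC-1 libraries, most of it LYZ. LYZ lay between 51.6 and 76.4 CPM with sgDual and between 36.2 and 44.2 with sgNC. It lay between 10.4 and 34.9 CPM with sgP1 and between 11.9 and 14.3 with sgP2. CD68 lay between 3.15 and 6.06 CPM over these libraries. The leukocyte marker PTPRC lay at 0.109 CPM or less and the T cell marker CD3E at 0 in every AsPC-1 library, and the part of LYZ-expressing cells in the result was not tested.

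**Figure D5:**
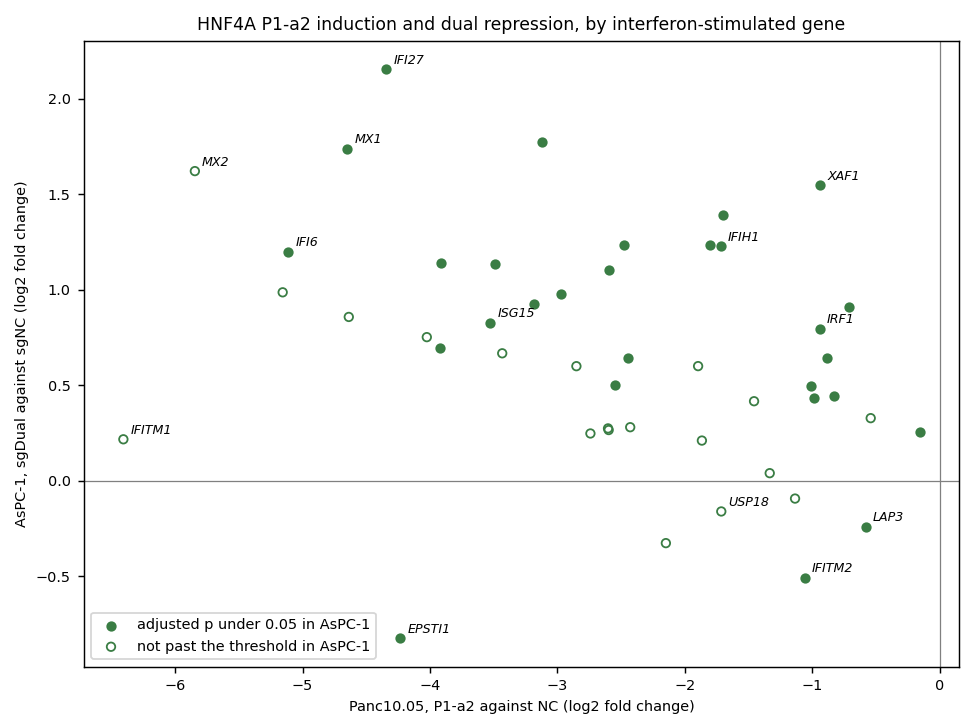
Log2 fold change of each member tested in both lines, with P1-a2 in Panc10.05 (horizontal axis) and with sgDual in AsPC-1 (vertical axis). Filled points passed the threshold in AsPC-1. All points lie left of 0 and most lie above 0, with EPSTI1, IFITM2 and LAP3 the filled points below it. Of the 48 members tested in AsPC-1, 42 had a log2 fold change above 0. These include IRF7, which was not tested in Panc10.05 and has no point.

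Repressing either promoter alone moved few members past the threshold, and few of all genes tested passed it either. With sgP1, 0 of the 48 passed the threshold by edgeR or by DESeq2, beside 0.1% of all genes higher and 0.165% lower by edgeR. At an unadjusted p under 0.05 there were 2 members (IFI6 and RSAD2), a smaller share than the 8.92% of all genes. The median log2 fold change was 0.12. IFI6 lay at 3.88, 4.43, 3.53 and 5.62 CPM, all above the sgNC libraries, with the smallest adjusted p (0.66 ± 0.19, edgeR adjusted p = 0.224). With sgP2, IRF1 fell, from 21.6 and 24.3 CPM to 15.8, 18.4, 16.4 and 17.1 (-0.44 ± 0.11, edgeR adjusted p = 0.0488), where 1.66% of all genes rose and 1.76% fell. It was the only member past the threshold, and 0 were past it without either sgNC library, without sgP2D library 1 or without either sgP2G library. With libraries scaled by total counts IRF1 missed the threshold (edgeR adjusted p = 0.0697) and IFIT5 passed it upward. The groups did not overlap for IRF1.

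Set against each other, sgP2 left IRF1 (-0.43 ± 0.09, edgeR adjusted p = 0.0185) and OAS3 (-0.39 ± 0.10, edgeR adjusted p = 0.0365) below sgP1 and 0 members above it, where 2.17% of all genes were higher and 2.13% lower. The count ran from 0 to 4 as libraries were left out: 0 without sgP2D library 1, 4 without sgP1E library 1, and 1 without sgP1E library 2, sgP1J library 2, sgP2D library 2 or sgP2G library 1. Without guide sgP1E, 6 members were above sgP1 and 3 below it, and the share over all genes in that fit is not given here. OAS3 makes the same kind of RNase L activator as OAS1. It lay at 91.2 and 103 CPM with sgP2D and 125 and 131 with sgP2G, and was the member that differed between those guides (-0.40 ± 0.07, edgeR adjusted p = 0.0131).

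Against sgP1, sgDual raised 22 members and lowered 2 (18.6% of all genes higher, 19.7% lower), and against sgP2 it raised 28 and lowered 3 (22.8% higher, 23.5% lower). The medians were 0.49 and 0.60. IRF1 had the largest rise over sgP2 of members above 5 CPM (1.24 ± 0.09, edgeR adjusted p = 1.67e-07), followed by IFIT3 (1.02 ± 0.21, edgeR adjusted p = 0.00168) and IFIH1 (0.99 ± 0.24, edgeR adjusted p = 0.00342). Over sgP1 the largest were IFIH1 (1.06 ± 0.24, edgeR adjusted p = 0.00301), SAMD9L (0.96 ± 0.24, edgeR adjusted p = 0.00641) and its paralogue SAMD9 (0.84 ± 0.16, edgeR adjusted p = 0.000903). IFITM2 and LAP3 were below sgP1, and IFITM2, PARP9 and DTX3L were below sgP2. Without sgP2D library 2, none of IFITM2, PARP9 and DTX3L passed against sgP2 (edgeR adjusted p = 0.139, 0.0633 and 0.0507), and IFITM2 did not pass against sgP1 without either sgP1J library or any 1 sgDual library (edgeR adjusted p between 0.0550 and 0.149). These comparisons do not use the sgNC libraries but share the sgDual libraries. IFI27 was again higher in sgDual, by 1.64 ± 0.22 over sgP1 (edgeR adjusted p = 5.67e-05) and 1.78 ± 0.23 over sgP2 (edgeR adjusted p = 1.86e-05). Not every member named above as rising against sgNC passed here. IFIT1, MX1 and IRF9 did not pass against sgP1, and ISG15 did not pass against sgP2.

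Guides to the same target did not always give the same level. Between sgP1E and sgP1J 8 members differed, 16.7% of the 48, which is close to the 14.5% of all genes that differed in either direction. SAMD9L stood at 14.3 and 13.8 CPM with sgP1E and 6.39 and 6.58 with sgP1J (1.11 ± 0.14, edgeR adjusted p = 0.000137), and SAMD9 at 74.7 and 76.2 against 48.9 and 47.7 (0.64 ± 0.10, edgeR adjusted p = 0.000834). USP18, PARP9, DTX3L and ZNFX1 were also higher with sgP1E, and IFITM2 and IFITM3 lower. Between sgP2D and sgP2G only OAS3 differed (1.69% of all genes). Between sgDual2 and sgDual3 0 of 48 passed by edgeR (0.883% of all genes) and 1 by DESeq2 (1.26%), with 7 at an unadjusted p under 0.05 (8.37%). In 42 of the 48 the log2 difference put sgDual3 higher, as in 49.3% of all genes. Against sgNC, 15 members rose with sgDual2 (13.5% of all genes higher) and 22 with sgDual3 (13.6%). All 15 were among the 22, and both comparisons use the same sgNC libraries.

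Of 36 further genes of the pathway that are not members, 7 of the 8 interferons lay below 1 CPM in every library, and the other was IFNE. IFNL1, a type III interferon, had 22 and 24 counts in the Panc10.05 control libraries, at most 3 with P2-a8 and 0 with P1-a2. IFNE, an epithelial type I interferon, lay between 1.47 and 2.06 CPM in the Panc10.05 control, between 1.61 and 1.65 with P2-a8 and between 0.413 and 0.616 with P1-a2. In Panc10.05 with P1-a2, 5 of the 30 pathway genes tested were higher and 19 lower, beside 31.5% and 30.5% of all genes. With P2-a8 5 were higher and 14 lower, beside 23.7% and 22.5%. In BxPC3 3 of 27 were higher and 11 lower with P1-a2 (17.1% and 14.9% of all genes), and 1 and 2 with P2-a8 (4.3% and 2.69%).

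RIGI, the sensor of short viral RNA, was lower in Panc10.05 with P1-a2 (-2.67 ± 0.14) and P2-a8 (-0.93 ± 0.12). UBA7, the activating enzyme for ISG15, was lower with P1-a2 in Panc10.05 (-3.02 ± 0.22) and BxPC3 (-1.10 ± 0.12). IFNLR1, the type III receptor chain, was instead higher with each isoform in each line, by 0.86 ± 0.13 and 1.10 ± 0.13 in Panc10.05 and 1.12 ± 0.18 and 0.90 ± 0.18 in BxPC3 for P1-a2 and P2-a8. In AsPC-1 11 of 28 pathway genes rose with sgDual and 0 fell, beside 17.8% of all genes in each direction. With sgP1 0 were called, and with sgP2 1, ADAR, was lower, beside 1.76% of all genes. STING1, the adaptor of DNA sensing, rose by 1.43 ± 0.24 (edgeR adjusted p = 0.000585), UBA7 by 1.51 ± 0.37 (edgeR adjusted p = 0.00618) and IFNLR1 by 0.76 ± 0.24 (edgeR adjusted p = 0.0236). IFNLR1 was thus higher both with added and with repressed HNF4A.

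Members with and without a core ISRE in the promoter window both changed. In Panc10.05 with P1-a2 the 27 tested members with a match had a median log2 fold change of -2.60 (range -6.57 to -0.58) and the 13 without had -1.80 (-3.43 to -0.16). In BxPC3 the medians were -0.70 over 28 and -0.72 over 13, and in AsPC-1 with sgDual 0.62 over 26 and 0.67 over 13. The ranges overlap in all 3, and no test was run.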

How the data were processed

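Poly(A) RNA of 26 libraries was sequenced with a directional kit on an Illumina instrument, per the labels' protocols. The deposited values are whole-number counts per gene, not normalized, in 1 table per line. The submitters' processing notes name cutadapt 1.16, STAR 2.7.9a, featureCounts 1.6.3, DESeq2 1.36.0 and GRCh38. The strand setting and annotation are not given in the sources used here. Symbols came from a reference table that matched 99.88% (Panc10.05, BxPC3) and 99.91% (AsPC-1) of identifiers. Gene positions and exon lengths are those of GENCODE v29, and promoters those of RefSeq.

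Within each line, genes were kept by filterByExpr (17247 in Panc10.05, 17635 in BxPC3, 16992 in AsPC-1), libraries were scaled by TMM, and groups were compared with edgeR 4.0.16 (glmQLFit, robust, and glmQLFTest, R 4.3.3), the groups of a line sharing 1 estimate of the spread. Guides of 1 target were compared in a fit by guide. P-values were adjusted by Benjamini-Hochberg over all genes tested, at a threshold of 0.05. CPM uses the TMM-scaled library size. SE is the absolute log2 fold change divided by the square root of F. A group with 3 counts or fewer in each library was taken as at the floor, which covers counting error only. The fits were tested on simulated data. Alternatives were DESeq2 1.42.0, other scalings, no filter, a 2-fold limit, fewer libraries, fewer guides and a replicate block.

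The members, the pathway list, the markers and the tests were chosen with earlier results of these data known. Followed in each comparison were 15 members, with the 3 largest rises and falls among members past the threshold at a mean of 5 CPM or more. Members could also be named where 5 or fewer made up a count. Between replicate libraries chi-square over its degrees of freedom was 5.08 to 24.07, so none was treated as a duplicate.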

Additional observations from a re-analysis of the deposited data

Results flagged for a closer look

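Between Panc10.05 and BxPC3, 3 members moved in opposite directions under the same contrast, with every library of the induced group on 1 side of every control library in each line. ISG20 with P1-a2 had a log2 fold change of -1.90 in Panc10.05 and 0.77 in BxPC3. ZNFX1 with P1-a2 had -1.01 and 0.27. XAF1 with P2-a8 had 0.86 in Panc10.05 and -0.97 in BxPC3. These differences between lines were not tested, and they were found among 98 member comparisons (3.06%). Over all genes tested in both lines 16.9% of 30952 such comparisons lay on opposite sides in the same way. The lines also differ in dose, control vector and counts table. For XAF1 they also differ in starting level, which was 2.28 and 2.49 CPM in the Panc10.05 control and 52.9 and 67.1 CPM in BxPC3. In the AsPC-1 groups of 4 libraries, no followed member had a library far enough from the other 3 to stand apart. This covers the 39 groups examined, where chance would give about 1 in 20. With 4 libraries from 2 guides this rule can miss a wide split. MX1 stood at 2.34 ± 2.44 CPM (SD, n = 2) with sgP1J and at 1.21 ± 0.16 with sgP1E.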

How the results depend on the processing

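No named fold change reversed under any alternative. Of 1795 recomputed values for named members, 1502 kept their direction and their side of the threshold and 293 missed it, 64 of these under the 2-fold limit. The counts that moved by more than 1.5 times follow. With a 2-fold limit, 21 members were past the threshold for P2-a8 against the control in Panc10.05, and 16 for P1-a2, 4 for P2-a8 and 2 between isoforms in BxPC3. In AsPC-1 this limit left 12 for sgDual against sgNC, 5 against sgP1 and 9 against sgP2, 1 between sgP1E and sgP1J, and 0 for sgP2 against sgNC, sgP2 against sgP1 and sgP2D against sgP2G.

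With the replicate block, which treats libraries of the same number as pairs, 38 members were past the threshold for P2-a8 in BxPC3, 3 for sgP2 against sgNC, 4 for sgP2 against sgP1, 23 between sgP1E and sgP1J, 2 between sgP2D and sgP2G and 3 between sgDual2 and sgDual3. The other counts moved by less than 1.5 times. Among these, sgDual against sgNC went from 29 to 35, with 33 higher and 2 lower. Deviations of same-numbered libraries correlated at -0.01 to 0.01 in Panc10.05, 0.07 to 0.13 in BxPC3 and 0.08 to 0.34 in AsPC-1. The AsPC-1 values were all positive, but the labels do not say what the numbers stand for. The main fits therefore did not pair the libraries by number, and a shift by number in AsPC-1 remains in them. In AsPC-1 the lowest values were those with the sgDual guides. With 2 libraries per guide the second deviates exactly opposite to the first, so each pair of guides gives only 1 value. These correlations are a hint from the data and not from the design.

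DESeq2 called 3 members for sgP2 against sgNC, 4 for sgP2 against sgP1, 2 between sgP2D and sgP2G and 1 between sgDual2 and sgDual3. The mean of guides gave 6 for sgP2 against sgNC (3 higher, 3 lower) and 5 for sgP2 against sgP1 (1 higher, 4 lower). A fit on only both groups gave 3 and 1 for these, 5 between sgP1E and sgP1J, 0 between sgP2D and sgP2G and 2 between the dual guides. With no filter on low counts the guide comparisons gave 26, 2 and 2. Among libraries numbered 1 there were 17 for sgDual against sgNC, and among those numbered 2 there were 8 against sgNC and 10 against sgP1. Both gave 0 for sgP2 against sgNC and against sgP1.

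Without guide sgP1J there were 2 for sgP1 against sgNC and 1 for sgP2 against sgP1, and without sgP1E 9 for the latter, 6 of them higher. Without sgP2D there were 0 for sgP2 against sgNC, 0 for sgP2 against sgP1 and 17 for sgDual against sgP2. Without sgP2G there were 1 for sgP2 against sgP1 and 20 for sgDual against sgP2. Without sgDual3 there were 16, 13 and 17 for sgDual against sgNC, sgP1 and sgP2. Leaving out each library in turn gave 14 to 25 for P2-a8 and 16 to 19 between isoforms in BxPC3, 0 to 1 for sgP2 against sgNC, 10 to 27 for sgDual against sgNC, 0 to 4 for sgP2 against sgP1 and 0 to 1 between sgP2D and sgP2G. An arm left with 1 library is assumed to vary like the others. Shares over all genes are not given beside the counts in this section, and the cause of these shifts was not tested. Members at 5 CPM or less, such as IFI27 and MX1 in AsPC-1, rest on few counts.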
